A study of Mus musculus with 4 samples.

Results

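The mRNA levels of 34 microglia genes were compared between the medial prefrontal cortex (mPFC) of depression-like mice and that of control mice. The genes were taken by symbol from a fixed list of genes that mark microglia. All 34 were found among the 17778 genes of the deposited table, and 33 of them reached 0.5 RPKM in at least 1 group, as did 14257 genes in all. RPKM is a read number scaled to gene length and library size, so that levels of different genes can be set side by side.

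The mice were male, of strain C57BL/6 by the sample labels and C57BL/6J by the study's methods. They were juveniles when the procedures began, and weeks of adaptation and of stress or control housing passed before the tissue was taken. The CUMS group (2 libraries) had lived through chronic unpredictable mild stress, a schedule of isolation, restraint, tilted, empty or damp cages, noise, strobe light and disturbed light cycles, and only mice that then showed depression-like behavior were used. The Control group (2 libraries) lived without these stresses. Both sides of the mPFC were taken from the mice of each group 24 hours after the behavior tests. Both groups were killed under isoflurane. Stressed mice without depression-like behavior are not among the samples, so that the comparison holds the stress and the selection of vulnerable mice together.

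Microglia are the resident macrophages of the brain. They depend on the receptor CSF1R for survival, read signals of neurons through receptors such as CX3CR1 and P2Y12, and clear debris and synapses with the help of complement and of the TREM2 receptor. In their resting, surveying state they hold high levels of Cx3cr1, P2ry12 and Tmem119, and these levels are known to fall in injury and inflammation while lysosomal and antigen-presenting genes rise.

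The authors deposited 1 mean RPKM per gene and group and no value for a single library. No difference below could therefore be set against the spread between mice, and no test was run. The error given is an exact 95% Clopper-Pearson interval of the log2 ratio (CUMS divided by control), for counting error only. It rests on fragment numbers read back from the deposited values, about 7385524 per control library and 7440476 per CUMS library. In whole tissue, fewer cells of a type and less RNA per cell cannot be told apart.

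Microglia genes were at similar levels in depression-like and control mice. Of the 33 genes, 19 were higher and 14 were lower in CUMS, with a median log2 ratio of 0.08 and a range of -0.78 to 0.54. Over all 14257 genes, 46.6% were higher and the median was -0.02. A difference above 1.5-fold, the fold threshold of the study, was seen in 1 member, Tlr7, against 7.2% of all genes. A difference above 2-fold was seen in 0 members and 2.45% of all genes, and one above 25% of the lower mean in 5 members and 18.9% of all genes. The counting interval lay within 1.5-fold on both sides in 23 of the 33 members, against 72.2% of all genes. Only 4 members had an interval that excluded equal levels. These were P2ry12, P2ry13, Unc93b1 and Itgam, and all 4 were higher in CUMS, where 12.5% of all genes had such an interval. P2ry12, P2ry13 and Itgam overlap another protein-coding gene. Among the 28 members without such an overlap, 1 had an interval on the higher side, Unc93b1, and the median log2 ratio was 0.05. No member had an interval entirely on the lower side, where 16.8% of all genes did. At 2 times the estimated depth the intervals excluded equal levels in 10 members. Aif1, Ctss, Cx3cr1 and Inpp5d then joined the 4 on the higher side, and Selplg and Tlr7 were on the lower side. At that depth 19.4% of all genes had an interval on the higher side and 24.8% on the lower side.

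**Figure D1:**
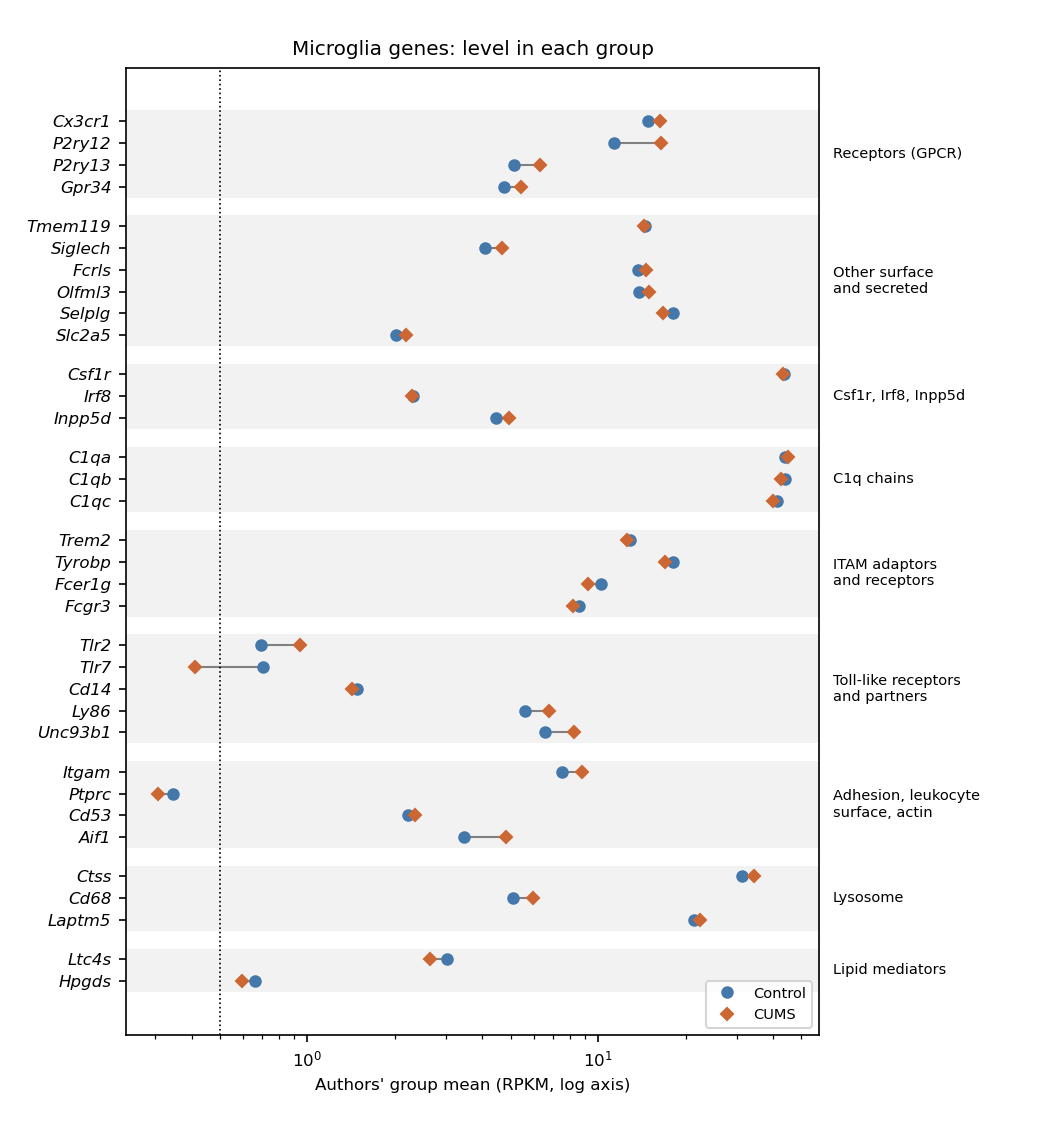
The authors' mean RPKM of each of the 34 microglia genes on a log axis, with circles for Control and diamonds for CUMS, ordered by role, and a dotted line at the 0.5 RPKM minimum. The C1q chains and Csf1r are between 40.0 and 44.8 RPKM in both groups, Ptprc lies under the minimum, and P2ry12 and Tlr7 show the widest gaps between the groups.

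The members spanned a wide range of levels. Among the 33 that reached the minimum the median was 7.5 RPKM in control and 8.28 in CUMS. Over all 14257 genes the medians were 9.03 and 8.785 RPKM. In both groups 14 members were over 10 RPKM, and the 5 most abundant, C1qa, Csf1r, C1qb, C1qc and Ctss, made up 48.4% of the summed level of the 34 genes in control and 46.9% in CUMS. The weakest member was Ptprc, the gene of the leukocyte surface phosphatase CD45, with 0.345 RPKM in control and 0.305 in CUMS, just outside the minimum. Just inside it were Hpgds with 0.66 and 0.595 RPKM and Tlr7 with 0.705 and 0.41 RPKM. The summed level was 421 RPKM in control and 437 in CUMS, which is 3.76% higher. Over the 28 members at the minimum that overlap no other protein-coding gene, the sum was 1.94% higher. The summed fragments of all 34 members, 11880 in control and 12583 in CUMS, gave a log2 ratio of 0.07 (counting interval 0.04 to 0.11).

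The promoters of a few members are shown first, because the C1q chains were among the most abundant members while P2ry12, P2ry13 and Aif1 were among the members furthest above control. No promoter in the RefSeq table of GRCm38.p6, the build of mm10, matched C1qa, so that of the C1q chains C1qb and C1qc are shown. The sequences come from that table. They span the 250 bases before the transcript start that the table gives, 5′ to 3′ on the strand of the gene. For C1qc and Aif1 that start lies inside the annotated gene span, so that the last 22 and 31 bases of their windows are within it. Capitals mark GAGGAA or TTCCTC, the same letters on the other strand. GAGGAA is a form of the core of the site bound by PU.1, a transcription factor that macrophages need. Other forms of this core were not searched.
C1qb, chr4:136886201-136886450, minus strand: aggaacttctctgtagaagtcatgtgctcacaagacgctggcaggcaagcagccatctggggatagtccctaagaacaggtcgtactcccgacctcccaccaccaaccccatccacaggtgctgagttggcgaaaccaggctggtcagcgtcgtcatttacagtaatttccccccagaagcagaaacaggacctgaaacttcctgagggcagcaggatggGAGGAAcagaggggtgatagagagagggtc
C1qc, chr4:136892915-136893164, minus strand: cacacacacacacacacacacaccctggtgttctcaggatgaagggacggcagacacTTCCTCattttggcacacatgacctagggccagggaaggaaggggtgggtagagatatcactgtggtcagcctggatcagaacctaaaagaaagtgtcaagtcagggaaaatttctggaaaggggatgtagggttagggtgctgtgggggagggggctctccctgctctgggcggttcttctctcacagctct
P2ry12, chr3:59262986-59263235, minus strand: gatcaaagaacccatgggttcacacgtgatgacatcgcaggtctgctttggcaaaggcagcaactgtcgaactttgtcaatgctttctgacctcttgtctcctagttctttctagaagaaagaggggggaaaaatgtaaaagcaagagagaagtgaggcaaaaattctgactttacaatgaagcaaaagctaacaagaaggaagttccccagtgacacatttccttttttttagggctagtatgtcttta
P2ry13, chr3:59210883-59211132, minus strand: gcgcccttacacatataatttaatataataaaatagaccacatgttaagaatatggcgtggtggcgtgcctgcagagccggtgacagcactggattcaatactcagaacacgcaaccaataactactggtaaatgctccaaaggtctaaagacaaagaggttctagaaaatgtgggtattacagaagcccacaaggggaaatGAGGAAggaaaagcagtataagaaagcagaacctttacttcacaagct
Aif1, chr17:35176053-35176302, minus strand: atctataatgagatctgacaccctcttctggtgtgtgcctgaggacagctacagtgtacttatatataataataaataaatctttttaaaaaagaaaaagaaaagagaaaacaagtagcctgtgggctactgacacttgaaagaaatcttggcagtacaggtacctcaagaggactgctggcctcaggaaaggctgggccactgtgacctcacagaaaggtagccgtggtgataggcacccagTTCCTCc

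The motif began 30 bases before the start given by the table in C1qb, 193 bases in C1qc, 48 bases in P2ry13 and 7 bases in Aif1, where it lies within the gene span, and these letters are not in the window of P2ry12. Of the 34 members 25 matched a promoter in the table, and 15 of the 25 (60%) held GAGGAA on either strand in at least 1 window. Among all genes of at least 0.5 RPKM with a promoter, 2903 of 11280 (25.7%) held it. A match of 6 letters is a description of the window and not a bound site.

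Ligands that microglial receptors read were present at similar levels in both groups. In the list of 8 ligands, 3 were above and 5 below control, with a median log2 ratio of -0.02, and none passed 1.5-fold. Cx3cl1, the neuronal ligand of CX3CR1, was the most abundant at 348 RPKM in control and 339 in CUMS, a log2 ratio of -0.04 (-0.07 to -0.01). Il34, a ligand of CSF1R that neurons make, was 47.1 RPKM in control and 52.3 in CUMS, a log2 ratio of 0.15 (0.04 to 0.27). Csf1, the other ligand of CSF1R, was 7.34 RPKM in control and 7.36 in CUMS.

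The 4 members that encode receptors for purines, lysophospholipids or chemokines were all higher in CUMS, with log2 ratios from 0.14 to 0.54. Of all genes, 46.6% were higher. P2ry12 (gene 70839, chr3:59216271-59262985) encodes the ADP receptor that draws microglial processes towards injured or active cells. Its mean was 11.4 RPKM in control and 16.5 in CUMS (392 and 574 fragments), 1.45-fold higher, with a log2 ratio of 0.54 (0.35 to 0.73). This was the highest ratio of the list, and 3.20% of all 14257 genes reached it. The interval of P2ry12 lay above the whole interval of 16 other members, among them Cx3cr1, Tmem119, Csf1r and the C1q chains. P2ry13 (gene 74191, chr3:59207892-59210882), a second ADP receptor and the neighbor of P2ry12, was 5.15 RPKM in control and 6.33 in CUMS, a log2 ratio of 0.30 (0.02 to 0.58).

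Both receptor genes lie inside the span of Med12l on the opposite strand, and the use of strand in counting is not stated, so that reads of Med12l could enter their values. Med12l itself was 2.99 RPKM in control and 2.96 in CUMS, a log2 ratio of -0.01 (-0.20 to 0.18). Cx3cr1, the receptor of neuronal fractalkine, was 14.8 RPKM in control and 16.3 in CUMS, with a log2 ratio of 0.14 whose interval (-0.00 to 0.27) still held 0. Gpr34, a receptor for lysophosphatidylserine, was 4.76 RPKM in control and 5.45 in CUMS, a log2 ratio of 0.20 (-0.14 to 0.55). It lies inside the span of Cask on the opposite strand, and Cask had a log2 ratio of 0.04 (-0.08 to 0.16).

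Other surface and secreted proteins that are enriched in microglia differed little. Tmem119, a membrane protein used to tell microglia from blood-derived macrophages, was 14.5 RPKM in control and 14.4 in CUMS, a log2 ratio of -0.01 (-0.20 to 0.18). Fcrls, an Fc receptor-like protein, was 13.7 RPKM in control and 14.6 in CUMS. The secreted protein gene Olfml3 was 13.8 RPKM in control and 14.9 in CUMS. These 3 genes have nearly the same level per length and none had an interval that excluded equal levels. Siglech, a sialic acid-binding lectin, had a log2 ratio of 0.20 (-0.14 to 0.53). The fructose transporter gene Slc2a5 was near 2 RPKM in both groups with a log2 ratio of 0.12 (-0.30 to 0.55). Selplg, which encodes the ligand of P-selectin, was the only member of this group with a ratio under -0.1, at 18.1 RPKM in control and 16.8 in CUMS (-0.11, interval -0.27 to 0.04).

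Csf1r encodes the receptor that keeps microglia alive, and it was the member with the most fragments, 2496 in control and 2501 in CUMS. Its means were 43.6 RPKM and 43.4 RPKM, a log2 ratio of -0.01, and its interval of -0.09 to 0.07 was the narrowest of the list. Irf8, a transcription factor of the macrophage lineage, was 2.30 RPKM in both groups after rounding (-0.42 to 0.43), and GENCODE M21 places the gene Gm20388 over it on the same strand. Inpp5d, which encodes the lipid phosphatase SHIP1, was 4.44 RPKM in control and 4.95 in CUMS, a log2 ratio of 0.16 (-0.06 to 0.38). Tmem119, Csf1r and Irf8 lay so near to 0 that their sign turned once the median over all genes was set to 0, a shift of 0.02 on the log2 scale.

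C1qa, C1qb and C1qc encode the chains of C1q, which starts the classical complement pathway and tags synapses for removal. The chains assemble in equal numbers, and the genes lie side by side on the minus strand of chromosome 4, from C1qb (chr4:136880126-136886200) through C1qc (chr4:136889801-136892936) to C1qa (chr4:136895916-136898844). C1qa was 43.9 RPKM in control and 44.8 in CUMS. C1qb was 43.8 RPKM in control and 42.5 in CUMS, and C1qc was 41.2 and 40.0 RPKM. The highest chain was thus 1.07 times the lowest in control and 1.12 times in CUMS. The log2 ratios were 0.03, -0.05 and -0.04 for C1qa, C1qb and C1qc, and no interval reached beyond -0.20 or 0.18.

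Other complement genes, among them the C1 proteases, later components, regulators and receptors, were weaker. Of 13 such genes 10 reached the minimum, 5 higher and 5 lower, with a median of 0.04. C2, which encodes the protease of the next step after C1, was 0.865 RPKM in control and 0.395 in CUMS (34 and 16 fragments), a log2 ratio of -1.13 (-2.05 to -0.20). C1ra, a protease of the C1 complex, was 0.605 RPKM in control and 1.06 in CUMS (25 and 43 fragments), a log2 ratio of 0.80 (0.03 to 1.54). C2 and C1s reached the minimum only through control, and C3ar1 only through CUMS.

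**Figure D2:**
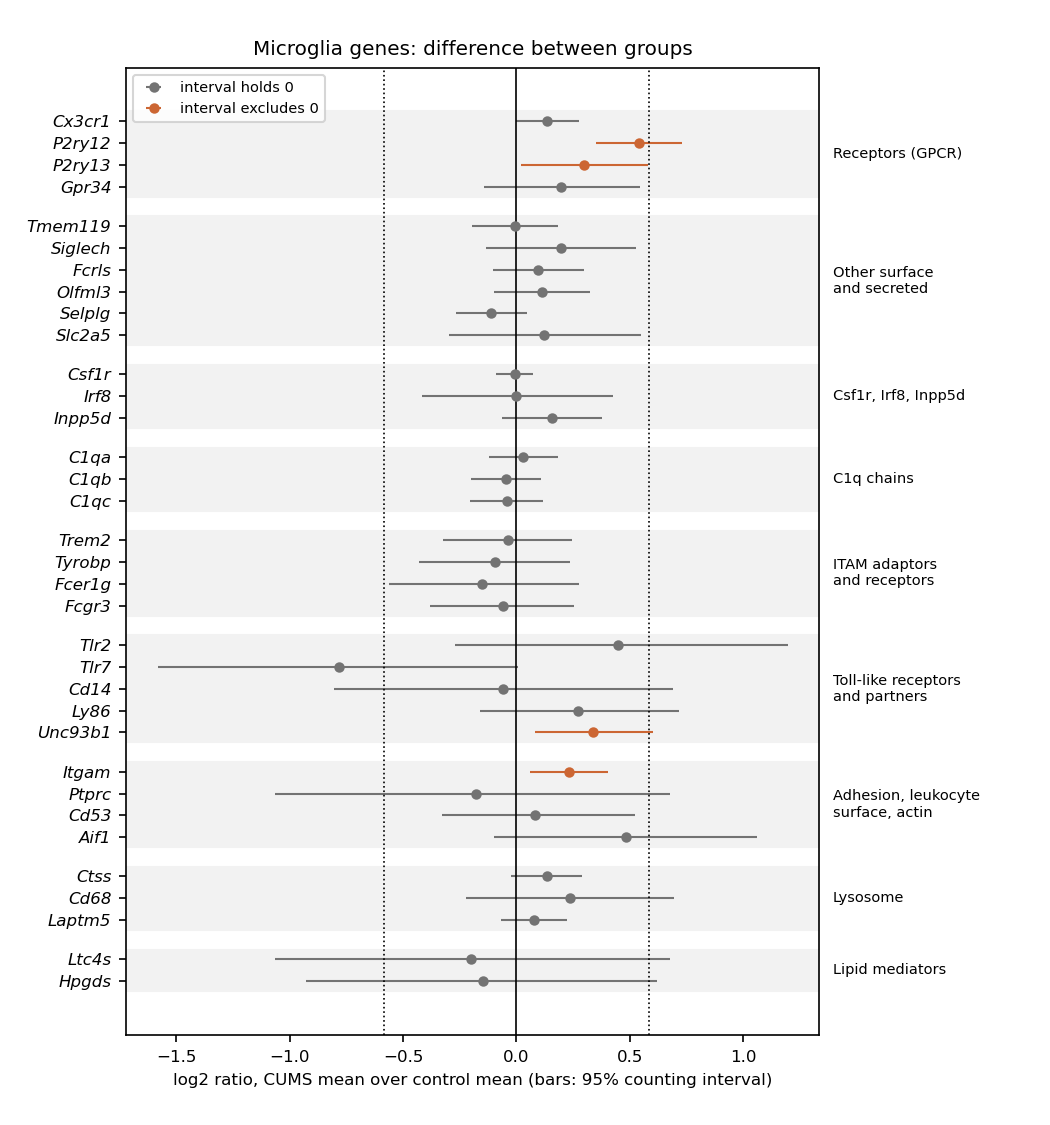
Log2 ratios, CUMS divided by control, for the 34 microglia genes by role, with bars for the 95% counting interval and dotted lines at 1.5-fold. The intervals of P2ry12, P2ry13, Unc93b1 and Itgam exclude 0 on the higher side, and those of the C1q chains and Csf1r are short and hold 0.

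The adaptors that carry an ITAM, the motif through which immune receptors signal, and the receptors paired with them were all slightly lower in CUMS. Trem2, the lipid-sensing receptor of phagocytosis, was 12.9 RPKM in control and 12.5 in CUMS, a log2 ratio of -0.04 (-0.32 to 0.25). Tyrobp, which encodes its adaptor DAP12, was 18.1 RPKM in control and 17.0 in CUMS, a log2 ratio of -0.09 (-0.43 to 0.24). The Fc receptor adaptor gene Fcer1g had a log2 ratio of -0.15 (-0.56 to 0.27), and the low-affinity Fc receptor gene Fcgr3 one of -0.06 (-0.38 to 0.25). Every one of these 4 intervals held 0. Members lower in CUMS had shorter genes, with a median of 1425 bases against 2338 bases for members higher in CUMS, and the part of length in these differences was not tested.

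Among the Toll-like receptors and the proteins that serve them, Unc93b1 (gene 54445, chr19:3935158-3949340) stood above control. It encodes the protein that carries nucleic acid-sensing Toll-like receptors to the endosome. Its mean was 6.55 RPKM in control and 8.28 in CUMS (220 and 281 fragments), a log2 ratio of 0.34 (0.08 to 0.60). Tlr7 (gene 170743, chrX:167303380-167330574), the endosomal receptor for single-stranded RNA and a client of that carrier, had the opposite direction. It was 1.72-fold lower in CUMS, on 39 fragments in control and 23 in CUMS, with a log2 ratio of -0.78 (-1.58 to 0.01). Tlr7 reached the minimum only through its control mean, and its interval still held equal levels.

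The surface receptor genes Tlr2 and Cd14 were weak as well, and Ly86 was more abundant. Tlr2, which senses bacterial lipoproteins, was 0.69 RPKM in control and 0.94 in CUMS (29 and 40 fragments), a log2 ratio of 0.45 (-0.27 to 1.20). Cd14, a coreceptor for lipopolysaccharide, was 1.48 RPKM in control and 1.42 in CUMS. Ly86, the partner of a Toll-like receptor homolog, was 5.60 RPKM in control and 6.77 in CUMS, a log2 ratio of 0.27 (-0.16 to 0.71).

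Genes of adhesion, leukocyte surface and actin binding leaned higher, apart from Ptprc. Itgam (gene 16409, chr7:128062640-128118491) encodes CD11b, the integrin chain of complement receptor 3 that recognizes complement-tagged material. Its mean was 7.5 RPKM in control and 8.81 in CUMS (519 and 614 fragments), a log2 ratio of 0.23 (0.06 to 0.40). GENCODE M21 places a further gene, Gm49368, over Itgam on the same strand. Aif1, which encodes the actin-binding protein IBA1 used to stain microglia, was 3.46 RPKM in control and 4.83 in CUMS. This was 1.40-fold higher, but with 45 and 63 fragments the log2 ratio of 0.48 had an interval of -0.10 to 1.06. The tetraspanin gene Cd53 had a log2 ratio of 0.08 (-0.33 to 0.52), and Ptprc one of -0.18 (-1.06 to 0.68) on 26 and 23 fragments.

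Lysosomal genes were higher by small amounts. Ctss, the cathepsin that processes antigen for presentation, was 31.3 RPKM in control and 34.4 in CUMS, a log2 ratio of 0.13 (-0.02 to 0.29). Laptm5, a lysosomal membrane protein of blood-lineage cells, was 21.3 RPKM in control and 22.4 in CUMS, a log2 ratio of 0.08 (-0.07 to 0.22). Cd68, a marker of phagocytic activity, was 5.09 RPKM in control and 5.99 in CUMS, a log2 ratio of 0.23 (-0.22 to 0.69). No interval of these 3 genes excluded equal levels. The synthases of lipid mediators were weak and lower in CUMS. Ltc4s, which makes leukotriene C4, had a log2 ratio of -0.20 (-1.06 to 0.68), and Hpgds, which makes prostaglandin D2, one of -0.15 (-0.93 to 0.62).

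**Figure D3:**
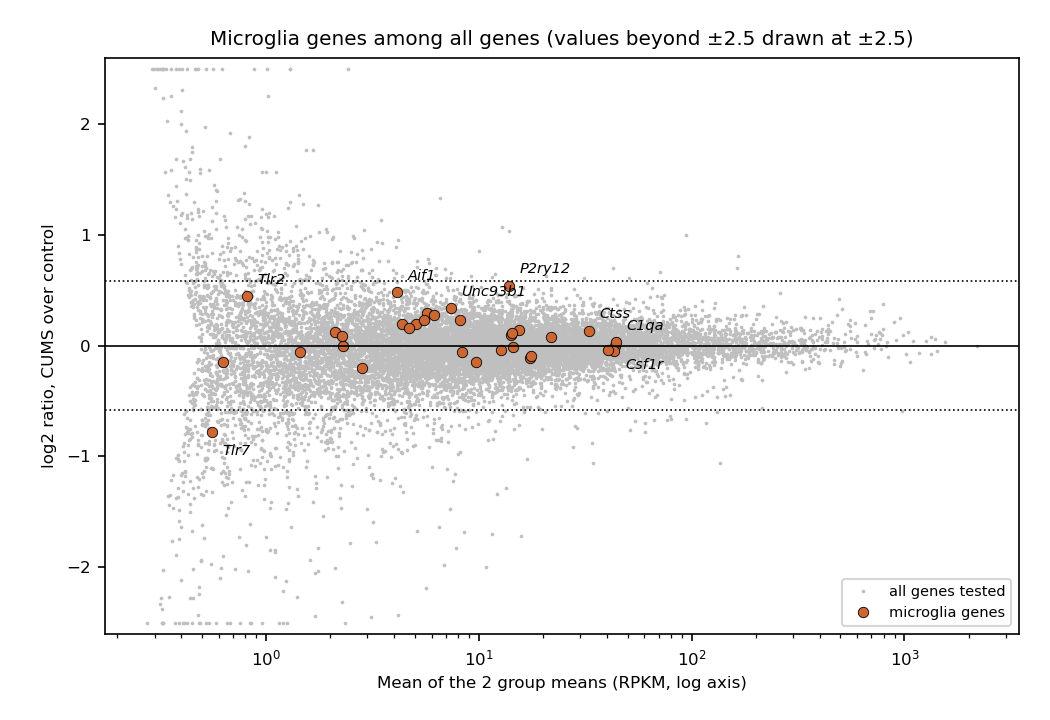
The log2 ratio of CUMS over control against the mean level on a log axis, with grey points for all 14257 genes and larger points for the 33 microglia genes, dotted lines at 1.5-fold, and ratios beyond the axis drawn at its edge. The members lie within the cloud of all genes, and Tlr7 is the one outside the dotted lines, at -0.78.

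A further list of 30 genes that microglia express showed no common direction. Of these, 28 reached the minimum, 14 were higher and 14 were lower, with a median log2 ratio of 0.01. P2ry6, a UDP receptor of phagocytosis, was 1.41 RPKM in control and 0.87 in CUMS, a log2 ratio of -0.69 (-1.47 to 0.07). Cd84, a leukocyte surface receptor, was 0.955 RPKM in control and 1.5 in CUMS, a log2 ratio of 0.65 (0.10 to 1.22). The whole interval lay above 0 in 3 genes of this list, Cd84 among them, against 12.5% of all genes. It lay below 0 in 2 genes, against 16.8% of all genes. These 2 were Sall1 (-0.45, -0.63 to -0.28), a transcription factor of microglial identity, and Rgs10 (-0.36, -0.58 to -0.13), a regulator of G protein signaling. Sall1 and Rgs10 were named after their values had been seen. Spi1, which encodes PU.1 and is listed under its older symbol Sfpi1, was 2.58 RPKM in control and 3.27 in CUMS (0.34, -0.21 to 0.90).

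Genes that microglia are known to raise in disease models were split between higher and lower. Of 20 such genes 15 reached the minimum, 7 higher and 8 lower, with a median of -0.03. Gpnmb, which reached the minimum only through control, had a log2 ratio of -0.90 (-1.68 to -0.11) on 42 and 23 fragments, and Ccl6 one of -0.63 (-1.61 to 0.38) on 24 and 16 fragments. The defining genes Cst7 (1 and 3 fragments), Itgax (3 and 4 fragments) and Clec7a (3 and 2 fragments) were near 0 in both groups. In this list the whole interval lay below 0 for 5 genes, Gpnmb, Apoe, Ctsb, Ctsd and Timp2, and above 0 for 0 genes. Of all genes, 16.8% had an interval below 0 and 12.5% had one above 0. Several abundant genes of this list, such as Apoe at 1201 RPKM in control and 1150 in CUMS, are expressed by other brain cells as well. Among 16 inflammatory mediators 14 were in the table and only 3 reached the minimum, Il18, Ptgs2 and Casp1, with log2 ratios of 0.09, -0.09 and -0.43 and intervals that held 0. Il1b had 3 fragments in control and 7 in CUMS, and Tnf had 0 and 1, too few to show a difference at this depth.

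**Figure D4:**
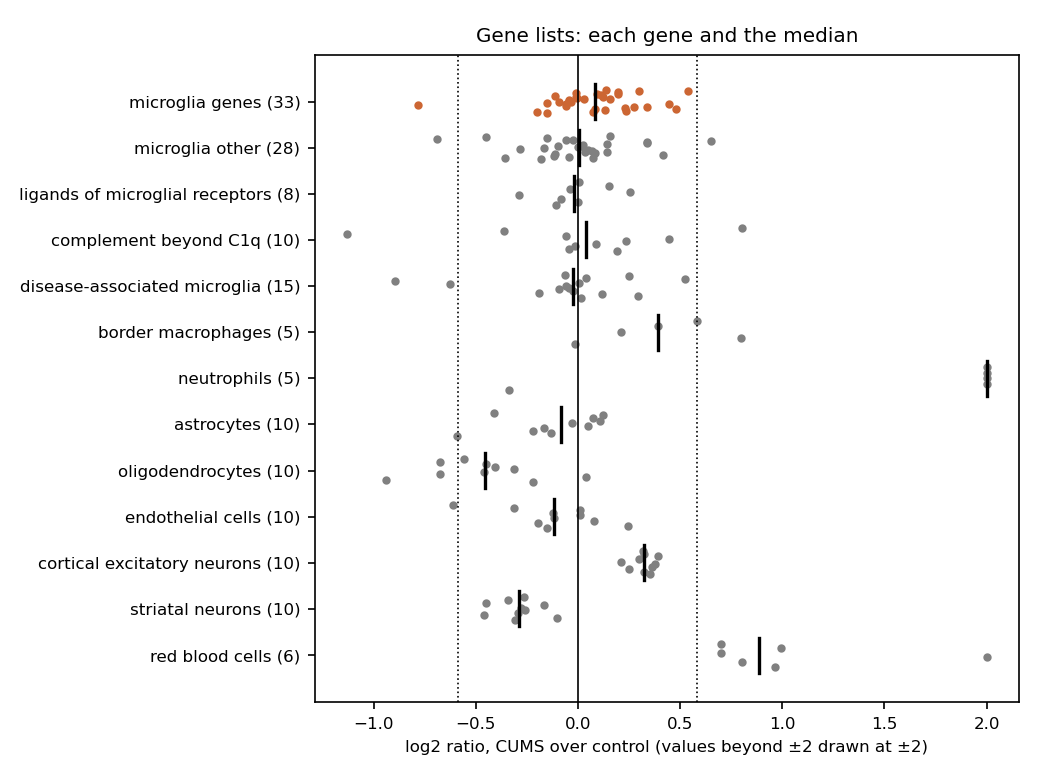
The log2 ratio of each gene that reached 0.5 RPKM, by list, with a bar at the median, the number of genes in brackets, dotted lines at 1.5-fold, and values beyond the axis drawn at its edge. The microglia genes center at 0.08, oligodendrocyte genes lie lower at -0.45 and excitatory neuron genes higher at 0.33.

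Markers of some other cells differed between the groups, and their part in the differences above was not tested. Of all 14257 genes, 46.6% were higher and 53.2% were lower. Cortical excitatory neuron genes were higher in 10 of 10 genes, with a summed level of 2332 RPKM in control and 2872 in CUMS. Oligodendrocyte genes were lower in 9 of 10 genes, with 805 and 574 RPKM in sum, and striatal neuron genes in 10 of 10, with 548 and 451 RPKM. Astrocyte genes were lower in 6 of 10 (1708 and 1543 RPKM) and endothelial genes in 6 of 10 (129 and 110 RPKM), both near the share of all genes. The counting interval lay above 0 in 10 of 10 excitatory neuron genes, and below 0 in 9 of 10 oligodendrocyte genes and 8 of 10 striatal neuron genes. Among the 10 astrocyte genes it lay above 0 in 2 and below 0 in 4, and among the 10 endothelial genes below 0 in 2. Of all genes, 12.5% had an interval above 0 and 16.8% had one below 0. The members passing 1.5-fold were Fgfr3 for astrocytes, Cldn5 for endothelium, and Mobp, Cldn11 and Ermn for oligodendrocytes, all lower. In either direction 7.2% of all genes passed 1.5-fold. The median log2 ratios of these lists were 0.33, -0.45, -0.29, -0.08 and -0.12 in the order given, and that of the microglia genes lay between them.

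Blood cells share several members of the list, such as Itgam, Ptprc, Fcer1g and Tyrobp. Genes of red blood cells were higher in 6 of 6 genes, each past 1.5-fold, with 342 RPKM in control and 594 in CUMS in sum. They were Alas2, an enzyme of heme synthesis, with a log2 ratio of 0.97 (0.40 to 1.56), and globin genes. The latter were the alpha globins Hba-a1 and Hba-a2 and the beta globins Hbb-b1, Hbb-b2 and Beta-s. Copies within each kind are much alike, so that reads can be misplaced or lost among them. Hbb-b2 rested on 1 and 5 fragments, reached the minimum only through CUMS, and had an interval that held 0. The 8 neutrophil genes in the table summed to 2.31 RPKM in control and 10.3 in CUMS (78 and 149 fragments), with Camp and Mpo listed at 0 in control. S100a8, the most abundant of them in CUMS, rested on 2 fragments in control and 26 in CUMS. S100a9 (1 and 14 fragments), Ngp (1 and 17 fragments) and Camp (0 and 8 fragments) were likewise past 1.5-fold, but these and S100a8 reached the minimum only through CUMS. Cxcr2 was lower, with a log2 ratio of -0.34 (-0.88 to 0.17). The 7 monocyte genes summed to 0.35 and 1.47 RPKM, and Ccr2, Ly6c2, Ly6i and Chi3l3 were among those listed at 0 in control. Chi3l3 was the only one to reach the minimum, and only through CUMS, on 0 and 15 fragments. The 9 lymphocyte genes summed to 0.56 and 0.935 RPKM, and none reached the minimum. Of 10 genes of border macrophages, the macrophages of meninges and vessels, 5 reached the minimum and 4 of these were higher, Mrc1 among them, which passed only through CUMS, with sums over all 10 of 7.18 and 8.70 RPKM. Cbr2 passed 1.5-fold, on 11 and 20 fragments, with a log2 ratio of 0.80 (-0.28 to 2.06).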

How the data were processed

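Poly(A) RNA was sequenced from 4 libraries as paired reads of Illumina HiSeq. According to the methods and the submitters' processing notes, reads were trimmed with SolexaQA, aligned to mm10 with TopHat 1.0.12 and Bowtie 0.11.3, and only uniquely aligned reads were counted. Which annotation was counted, and whether by strand, is not given in the sources used here. The deposited values were RPKM, averaged by the authors within each group, with 0.01 standing in for 0. The table also held the authors' own log2 ratios, directions and NOISeq probabilities, which were not used.

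The products of mean RPKM and gene length were multiples of 1 step for genes under 1000 bases (86.5% of 406 control and 86.2% of 392 CUMS products under 350 lay within 0.15 of a whole step), and the step gave the fragments per library, assuming equal depth within a group. These estimates are lower than the read numbers of the study, which was not resolved; a larger depth narrows the intervals. The step estimate and the intervals were tested on simulated data. Duplicates could not be removed, and intervals cover counting error only.

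Analysis used Python 3.11.15, numpy 2.4.6, pandas 2.3.3 and scipy 1.17.1. A gene entered the comparison when 1 of its means reached 0.5 RPKM. All 34 members were named by role. Of other lists, counts, medians and genes past 1.5-fold were named, or else the most abundant gene. Members and lists were chosen with earlier results of these data known. Coordinates and promoters are of GRCm38.p6 (RefSeq), with all 34 members matched by gene identifier, and overlaps were taken from GENCODE M21.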

Additional observations from a re-analysis of the deposited data

How the results depend on the processing

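No paired analysis was possible because no value of a single library was at hand, only the authors' means, and for the same reason no replicate could be left out. Of 37 values under alternatives, 31 stayed near the reported ones, and the median log2 ratio lay between 0.05 and 0.10 throughout. The lowest median, 0.05, was that without the members that overlap another protein-coding gene. With at least 5 RPKM in either group, 9 members were lower and 0 passed 1.5-fold, since Tlr7 was no longer included. A pseudocount of 0.5 also left 0 members past 1.5-fold. A threshold of 2-fold left 0 members too, and 2.45% of all genes passed. With a threshold of 25% above the lower mean, 5 members passed (P2ry12, Tlr2, Tlr7, Unc93b1 and Aif1), against 18.9% of all genes. With the fragments per library at 2 times the estimate, 10 intervals excluded equal levels, 8 on the higher and 2 on the lower side. Of all genes, 19.4% and 24.8% then had such intervals. With the median over all genes set to 0 there were 22 members higher and 11 lower. The depth limits members under 1 RPKM, Tlr2, Tlr7, Ptprc and Hpgds, which rest on at most 40 fragments a group.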
